A study of Mus musculus with 7 samples.

Results

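The genes described here make the ribosome: 57 genes of ribosome biogenesis and of the nucleolus, out of 8378 genes measured in mouse bone marrow cells on 7 microarrays. The rule that picked them reads gene symbols only. A gene was taken where its symbol began with Nop, Utp, Nol, Rrp or Tsr followed by a digit, or with Polr1, or where it was one of Bop1, Ncl, Npm1, Fbl, Rrs1, Pes1, Ftsj3, Dkc1, Gar1, Imp3, Imp4, Ebna1bp2, Nip7, Bysl, Wdr12, Wdr43 and Wdr75. The 57 genes were read by 96 of the 16255 probe sets, and a gene with several probe sets was given their mean. By known role they comprise 5 subunits of RNA polymerase I, 6 core proteins of the small nucleolar ribonucleoproteins (snoRNPs), 26 factors of the small ribosomal subunit, 17 factors of the large subunit, the abundant nucleolar proteins Ncl and Npm1, and Nol4l, which was taken in by its symbol.

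Ribosomes are built in the nucleolus. RNA polymerase I copies the ribosomal DNA into a long precursor RNA, snoRNPs methylate and pseudouridylate it, and successive sets of assembly factors cut it and fold it into the small and the large subunit, which are then exported to the cytoplasm. In bone marrow, ribosome production is known to be high in dividing progenitors and to decline as granulocytes mature, and inherited defects of ribosome synthesis are a known cause of marrow failure.

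All 7 arrays held RNA of marrow cells harvested from transplant recipient mice. The mock group (3 arrays) came from recipients of marrow with a mock control transgene, and the ABCG2 group (2 arrays) from recipients of marrow with an ABCG2 transgene, a drug efflux pump of the cell membrane; both were unsorted. EZH2-Mt marrow came from recipients described as MDS-like, MDS being taken as myelodysplastic syndrome, and was sorted before RNA extraction into GFP-negative (1 array) and GFP-positive (1 array) fractions, GFP being green fluorescent protein. The labels do not number the mice, give no age or strain, and do not say what EZH2-Mt stands for, which promoter drove the transgenes or what share of the marrow carried them. P-values therefore measure the spread between these arrays only, and the number of arrays limits the precision. The EZH2-Mt arrays differ from the others by transgene and by sorting, which cannot be told apart, and the titles of the ABCG2 samples carry a series tag that the mock titles lack; if it marks a batch, batch and transgene cannot be told apart either.

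Each deposited value is a log signal, taken here as log2, of a probe set minus its own median over the 7 arrays, and is called the centred log2 signal. A value of 0 is thus the median array, not absence, and levels cannot be compared between genes. Over all probe sets the standard deviation of these values was 0.33 to 0.42 on the mock arrays, 1.06 and 1.13 on the arrays labelled ABCG2, and 0.41 and 0.54 on the GFP-negative and GFP-positive arrays. The mouse Abcg2 probe set read lower on the arrays labelled ABCG2 (-0.92 and -0.91) than on the mock arrays (-0.17 to 0.024). The labels do not give the species or the sequence of the transgene, so this probe set does not check it. Probe sets of the spiked control transcripts had medians near 0 on the mock arrays and moved on the others. On ABCG2 arrays 1 and 2 the median was -0.21 and -0.33 for bioC, bioD and cre (12 probe sets), -3.07 and -3.20 for bioB (4) and -1.04 and -1.49 for the poly-A spikes dap, lys, phe and thr (24). On the GFP-negative and GFP-positive arrays the same sets read 0.91 and 2.14, 0.99 and 2.47, and 1.79 and 3.50. The beta-actin 3′ minus 5′ signal, a sign of RNA quality, was -0.050 to 0.036 on the mock arrays, 0.40 and 0.42 on the ABCG2 arrays, and 0.14 and 0.31 on the GFP-negative and GFP-positive arrays. The same measure for Gapdh was -0.080 to 0.100 on mock, -0.078 and -0.11 on ABCG2, and 0.091 and 0.35 on the fractions. The part of these control signals in the results below was not tested.

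Ribosome biogenesis genes read higher in marrow labelled ABCG2 than in mock marrow, in each role group. The median of the 57 genes was -0.20, -0.048 and 0.011 on mock arrays 1, 2 and 3, 0.80 and 0.86 on ABCG2 arrays 1 and 2, and -0.21 and -0.094 on the GFP-negative and GFP-positive arrays. The ABCG2 arrays stood well above the other 5, which lay near one another, while the medians of all 8378 genes ran only from -0.011 to 0.089. With limma, 48 of the 57 genes were higher in the ABCG2 group at an adjusted p under 0.05, beside 35.6% of all genes, and none was lower, beside 26.2% of all genes. The median difference was 0.92 (quartiles 0.70 and 1.20), against 0.15 (quartiles -0.52 and 0.73) over all genes. Both ABCG2 arrays exceeded all 3 mock arrays for 52 of the 57 genes, against 44.2% of all genes, and were below all 3 for 1, against 32.7%; 24 genes were called higher and at least 2-fold up, against 16.5%. In whole marrow, more cells of a type and more RNA per cell cannot be told apart.

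**Figure D1:**
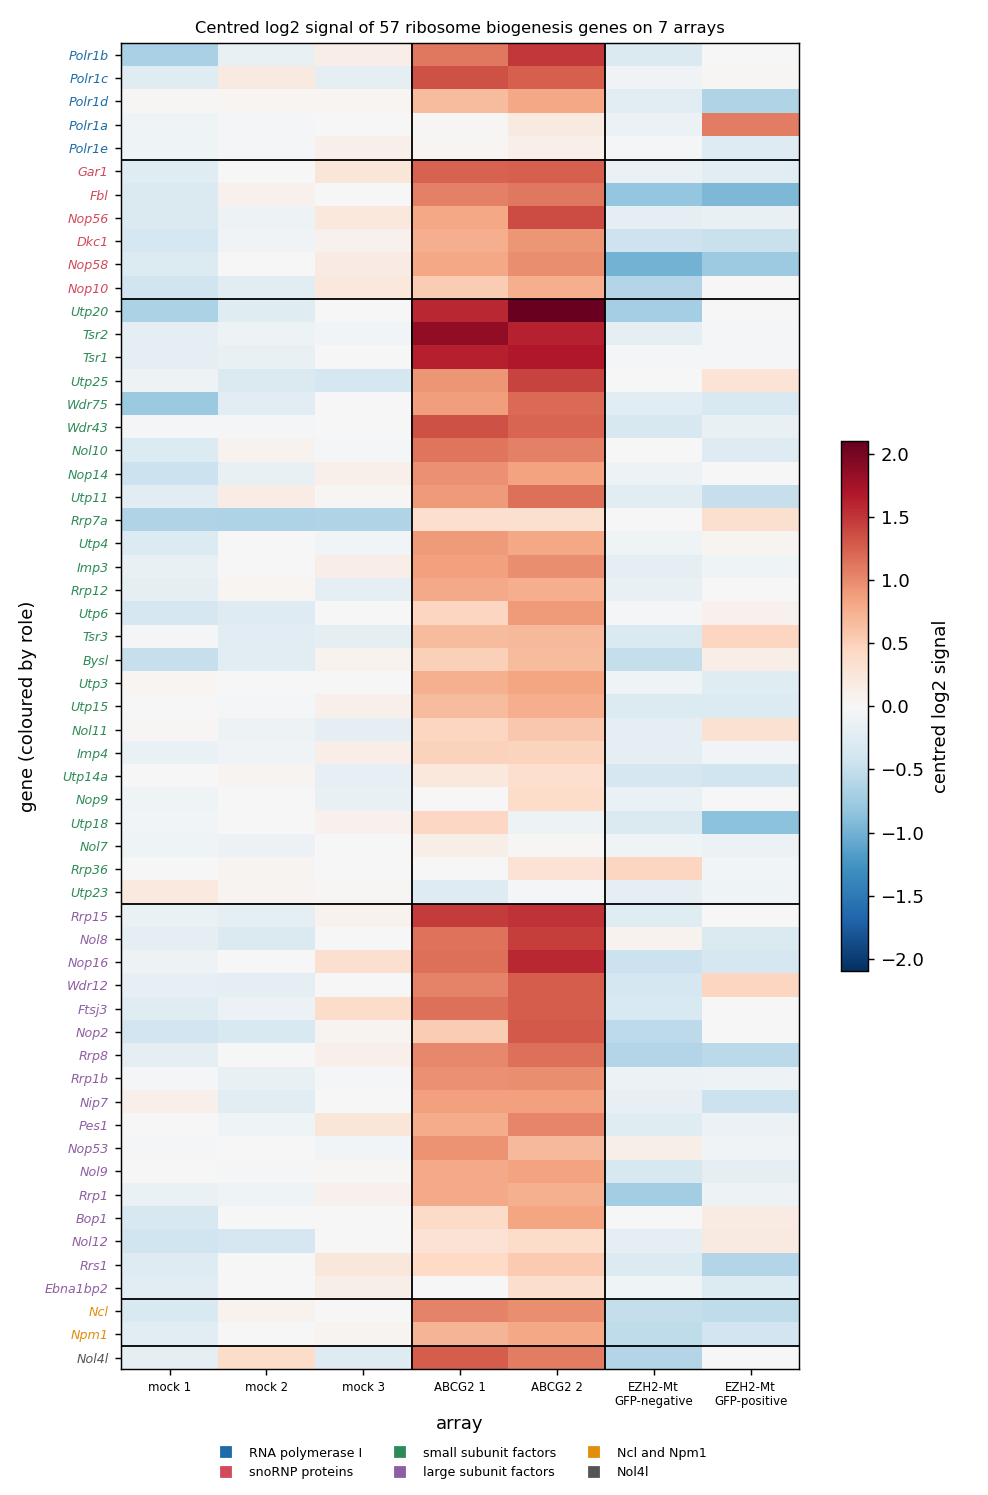
Centred log2 signal (colour, blue below and red above the gene's median array) of the 57 genes (rows, grouped and coloured by role) on the 7 arrays (columns). The ABCG2 columns are red for nearly all rows, with array medians of 0.80 and 0.86; Utp23 is the one gene that was below all mock arrays on both.

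These calls depended on how the arrays were scaled. Quantile normalization was applied to the centred values and forces the same spread on all arrays. It thus narrows the values on the ABCG2 arrays, which spread most, and widens those on the mock arrays. The median difference shrank to 0.58, and 53 of 57 differences stayed above 0. Of the 57 genes 13 were called higher, beside 17.0% of all genes, and all 13 were among the 48. They were Polr1c, the small subunit factors Utp20, Tsr2, Tsr1, Utp25, Wdr43, Rrp7a, Utp4 and Tsr3, and the large subunit factors Rrp15, Nol8, Wdr12 and Rrp1b. Centring each array on its median, array weights, the median of probe sets and leaving out any 1 mock array gave 44 to 48 genes. The share of all genes called higher in these settings was 29.4% to 35.5%. Without ABCG2 array 1 or 2 the median difference was 0.97 or 0.87.

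**Figure D2:**
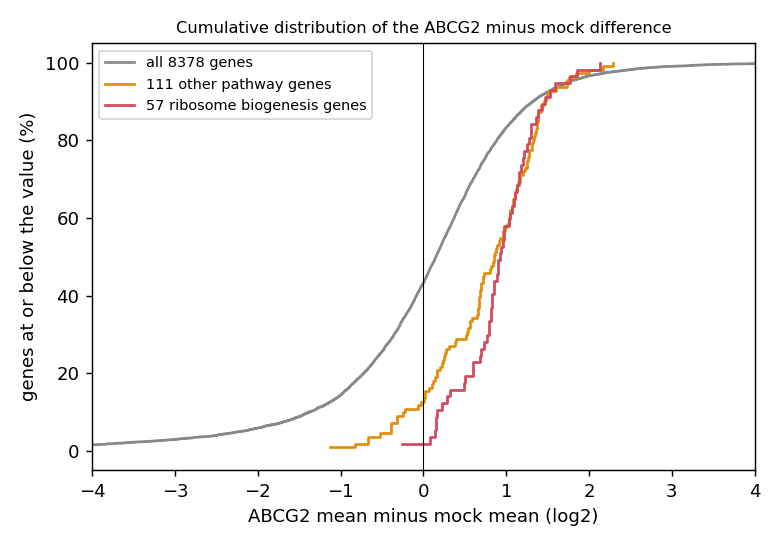
Cumulative share of genes (vertical axis, percent) at or below a given ABCG2 minus mock difference (horizontal axis, log2), for the 57 genes, 111 other genes of the pathway and all 8378 genes. The curves of the 57 and the 111 genes lie to the right of that of all genes, with medians of 0.92, 0.85 and 0.15.

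Promoters of 4 of the genes that rose together are shown: Utp20 had the largest difference and Tsr1 the smallest adjusted p of the 57, while Nop2 and Rrp7a hold the letters CACGTG, an E-box of the kind that Myc with Max can bind. Each is the 250 bases before the gene's start in RefSeq (GRCm38.p6), 5′ to 3′ on the gene's strand, with the motifs named below in capitals. Utp20 lies at chr10:88826815-88827064 (minus strand), Tsr1 at chr11:74897830-74898079 (plus strand), Nop2 at chr6:125131633-125131882 (plus strand) and Rrp7a at chr15:83122802-83123051 (minus strand).
Utp20: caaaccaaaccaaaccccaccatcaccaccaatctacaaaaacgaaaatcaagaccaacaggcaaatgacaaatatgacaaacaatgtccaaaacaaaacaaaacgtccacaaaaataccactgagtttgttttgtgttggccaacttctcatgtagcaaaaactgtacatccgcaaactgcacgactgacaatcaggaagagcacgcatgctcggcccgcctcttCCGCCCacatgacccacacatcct
Tsr1: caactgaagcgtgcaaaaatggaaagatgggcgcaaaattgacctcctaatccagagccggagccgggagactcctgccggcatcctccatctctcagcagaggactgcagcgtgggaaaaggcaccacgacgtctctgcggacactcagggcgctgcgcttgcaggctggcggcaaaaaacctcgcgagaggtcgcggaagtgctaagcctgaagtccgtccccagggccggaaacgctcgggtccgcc
Nop2: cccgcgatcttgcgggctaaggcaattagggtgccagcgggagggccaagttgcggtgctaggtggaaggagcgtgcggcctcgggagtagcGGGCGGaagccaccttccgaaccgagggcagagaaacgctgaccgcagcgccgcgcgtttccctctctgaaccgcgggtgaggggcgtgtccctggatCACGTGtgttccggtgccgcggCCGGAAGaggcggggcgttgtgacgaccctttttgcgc
Rrp7a: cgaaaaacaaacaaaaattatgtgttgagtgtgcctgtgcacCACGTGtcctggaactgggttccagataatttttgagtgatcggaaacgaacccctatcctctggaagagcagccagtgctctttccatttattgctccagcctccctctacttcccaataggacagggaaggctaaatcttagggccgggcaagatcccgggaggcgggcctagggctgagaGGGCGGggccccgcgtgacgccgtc
The Utp20 window holds GGGCGG, the GC box bound by Sp1-type factors, on the opposite strand 24 bases before the start, and the Tsr1 window holds none of the motifs searched. Nop2 has GGGCGG at 158, CACGTG at 60 and CCGGAAG, an Ets-type motif, at 38 bases before its start, and Rrp7a has CACGTG at 208 and GGGCGG at 25 bases before its start. An entry was found for 47 of the 57 genes, with 56 windows in all. On both strands, with matches allowed to overlap, CACGTG was in 6 of the 56 windows (10.7%), against 8.83% of the 8877 windows of all measured genes. GGGCGG was in 62.5% against 58.6%, CCGGAAG in 19.6% against 15.6%, TATAAA (the TATA box) in 8.93% against 6.05%, and the palindromic NRF1 motif in 0 of 56 against 1.90%. The 6 genes with CACGTG were Imp4, Nol11, Nop2, Rrp7a, Utp18 and Utp25; their differences ran from 0.16 for Utp18, which was not called, to 1.43 for Utp25.

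RNA polymerase I starts the pathway. Of its 5 measured subunits 3 rose in the ABCG2 group (median difference 0.70), and 1 of them, Polr1c, was called after quantile normalization. Polr1b, the second-largest subunit and part of the catalytic centre, read -0.68, -0.16 and 0.14 on the mock arrays, 1.11 and 1.48 on the ABCG2 arrays, and -0.30 and 0 on the GFP-negative and GFP-positive arrays. Both ABCG2 arrays lay above the other 5, and mock 1 was low; the difference was 1.53 ± 0.26 (limma SE; 2.88-fold, adjusted p = 0.00256). Polr1c, a subunit shared with RNA polymerase III, read -0.26, 0.18 and -0.18 on mock, 1.34 and 1.25 on ABCG2, and -0.078 and 0.022 on the EZH2-Mt arrays in the same order. Here too the ABCG2 arrays stood apart from all others, by 1.38 ± 0.17 over mock (2.60-fold, adjusted p = 0.00071). Polr1d, the other shared subunit, was 0.029 to 0.045 on mock, 0.66 and 0.81 on ABCG2, and -0.24 and -0.64 on the GFP-negative and GFP-positive arrays. Its mock values, each a mean of 4 probe sets, were the closest together of any of the 57 genes. Single probe sets spread more widely on mock, such as from -0.060 to 0.24. The Polr1d difference was 0.70 ± 0.13 (adjusted p = 0.00335). The largest, catalytic subunit Polr1a behaved differently: it read -0.089, -0.048 and 0 on mock, 0.021 and 0.19 on ABCG2, -0.13 on GFP-negative and 1.08 on GFP-positive. Only the GFP-positive array was clearly high, and the ABCG2 minus mock difference of 0.15 ± 0.13 did not pass (adjusted p = 0.339). Polr1e, a subunit particular to polymerase I, overlapped between the groups (-0.10 to 0.10 on mock, 0.034 and 0.11 on ABCG2; 0.081 ± 0.13, adjusted p = 0.616), and its difference turned to -0.033 with quantile normalization.

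All 6 measured snoRNP core proteins rose (median difference 1.05), and none of the 6 was called after quantile normalization. In the box C/D particles, Fbl, the enzyme that methylates ribosomal RNA, read -0.30, 0.088 and 0.011 on mock, 1.07 and 1.11 on ABCG2, and -0.81 and -0.95 on the GFP-negative and GFP-positive arrays. The 3 sets did not overlap: ABCG2 was highest, mock in between and both EZH2-Mt fractions lowest. Fbl was 1.16 ± 0.16 above mock (2.23-fold, adjusted p = 0.00107). Its partner Nop58 ordered the groups in the same way, with -0.28, 0 and 0.17 on mock, 0.81 and 0.97 on ABCG2, and -0.99 and -0.77 on the EZH2-Mt arrays, a rise of 0.93 ± 0.17 (adjusted p = 0.00357). Nop56, the third C/D core protein, read -0.30, -0.11 and 0.22 on mock, 0.81 and 1.36 on ABCG2, and -0.21 and -0.15 on the EZH2-Mt arrays. Its EZH2-Mt values lay within the mock range, and the ABCG2 arrays, though apart from each other, were above all the rest (1.15 ± 0.23, adjusted p = 0.00505).

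In the box H/ACA particles, Gar1 read -0.25, 0 and 0.26 on mock, 1.25 on both ABCG2 arrays, and -0.13 and -0.23 on the EZH2-Mt arrays. The ABCG2 arrays were the 2 highest of the 7, at 1.24 ± 0.18 above mock (2.37-fold, adjusted p = 0.0012). Dkc1, the pseudouridine synthase that is mutated in dyskeratosis congenita, was -0.38, -0.067 and 0.091 on mock, 0.76 and 0.92 on ABCG2, and -0.44 and -0.47 on the EZH2-Mt arrays. This mean of 3 probe sets was thus highest on ABCG2 and lowest on the EZH2-Mt arrays, with a rise of 0.96 ± 0.17 over mock (1.94-fold, adjusted p = 0.00348). The Dkc1 probe sets disagreed. The one with the largest rise, 1.39, read 0.39 on GFP-negative, above its mock values of -0.34 to 0. On GFP-positive it read -0.21, within them. The one with the smallest rise, 0.38, did not pass (limma, adjusted p = 0.205). Nop10, the small scaffold of the same particle, rose by 0.79 ± 0.21 (adjusted p = 0.0166).

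Of the 26 small subunit factors 20 rose and none fell (median difference 0.89), with 8 called after quantile normalization. The largest differences were at the late pre-ribosome and in the processome that holds the precursor RNA. Utp20, a large scaffold of that processome, read -0.67, -0.26 and 0 on mock, 1.58 and 2.07 on ABCG2, and -0.71 and 0.013 on the GFP-negative and GFP-positive arrays. The ABCG2 arrays stood more than 1 log2 unit above every other array, a difference of 2.13 ± 0.24 (4.39-fold, adjusted p = 0.000511). Tsr2, an escort of the ribosomal protein Rps26, read -0.18, -0.11 and -0.055 on mock, 1.86 and 1.61 on ABCG2, and -0.20 and -0.037 on the EZH2-Mt arrays. All but the ABCG2 arrays were close together, and the rise was 1.85 ± 0.14 (3.61-fold, adjusted p = 9.11e-05). Tsr1, a factor of the cytoplasmic pre-small-subunit, gave the same picture with -0.18, -0.15 and 0 on mock, 1.63 and 1.67 on ABCG2, and -0.030 and -0.024 on the EZH2-Mt arrays (1.77 ± 0.13, 3.40-fold, adjusted p = 8.76e-05).

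Utp25, another processome protein, read -0.11, -0.30 and -0.37 on mock, 0.93 and 1.41 on ABCG2, and 0 and 0.29 on the EZH2-Mt arrays. Both fractions were above mock but below ABCG2, which was 1.43 ± 0.18 above mock (2.69-fold, adjusted p = 0.00086). Wdr75, of the subcomplex that links transcription to processing, was -0.78, -0.23 and 0.014 on mock, 0.88 and 1.19 on ABCG2, and -0.24 and -0.32 on the EZH2-Mt arrays. Mock 1 was low, yet no mock array reached the ABCG2 values (1.36 ± 0.25, adjusted p = 0.00357). Of the same subcomplex, Wdr43 rose by 1.30, Utp4 by 0.97, Utp15 by 0.69 and Nol11 by 0.59. Of the 2 Utp15 probe sets, 1 gave 0.14 and was not called. Imp3 and Imp4, which join the U3 snoRNP to the precursor, rose by 0.92 and 0.50. Heatr1, of the same subcomplex as Wdr75, and Mphosph10, a partner of Imp3 and Imp4, were measured but lie outside the naming rule. Heatr1 differed by 0.16 and Mphosph10 by -0.39, and neither passed (limma, adjusted p = 0.329 and 0.065). Rrp7a, a processome factor, ordered the arrays in another way: it read -0.63, -0.65 and -0.63 on mock, 0.35 and 0.33 on ABCG2, and 0 and 0.34 on the GFP-negative and GFP-positive arrays. Mock was lowest and the GFP-positive array reached the ABCG2 level, which was 0.98 ± 0.12 above mock (adjusted p = 0.000705).

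Of the 17 large subunit factors 16 rose and none fell (median difference 0.90), with 4 called after quantile normalization. Rrp15, a factor of the early pre-large-subunit, read -0.14, -0.20 and 0.066 on mock, 1.47 and 1.52 on ABCG2, and -0.26 and 0 on the EZH2-Mt arrays. Its 2 ABCG2 arrays were close together and far above the rest, by 1.59 ± 0.14 over mock (3.01-fold, adjusted p = 0.000175). Nol8 differed by 1.47 ± 0.16 (2.77-fold, adjusted p = 0.000447), with -0.31 to -0.015 on mock and 1.14 and 1.45 on ABCG2. Nop16 differed by 1.30 ± 0.20 (adjusted p = 0.00176) and Ftsj3, a methyltransferase of ribosomal RNA, by 1.21 ± 0.21 (adjusted p = 0.00283).

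The PeBoW complex of Pes1, Bop1 and Wdr12, needed for the large subunit RNA to mature, rose in all its members, by unequal amounts. Wdr12 read -0.17, -0.18 and 0 on mock, 1.04 and 1.27 on ABCG2, and -0.38 and 0.45 on the GFP-negative and GFP-positive arrays, a rise of 1.28 ± 0.14 (2.42-fold, adjusted p = 0.000487). The ABCG2 arrays lay above all others, and the EZH2-Mt fractions lay on either side of mock. Pes1 was 0, -0.088 and 0.25 on mock and 0.79 and 1.02 on ABCG2 (0.85 ± 0.16, adjusted p = 0.00401). Bop1 was -0.33, -0.016 and 0 on mock and 0.40 and 0.83 on ABCG2, so the groups were apart but the ABCG2 arrays differed from each other (0.73 ± 0.19, adjusted p = 0.0144). Without ABCG2 array 2 the Bop1 difference was 0.51 and no longer passed (adjusted p = 0.0721). Nop2, which methylates the large subunit RNA, had the widest gap between the ABCG2 arrays of the 57 genes: it read -0.40, -0.32 and 0.063 on mock, 0.53 and 1.28 on ABCG2, and -0.55 and 0 on the EZH2-Mt arrays. The groups did not overlap, and the difference was 1.12 ± 0.26 (2.18-fold, adjusted p = 0.0089).

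The abundant nucleolar proteins both rose, and neither was called after quantile normalization. Nucleolin (Ncl), which binds nascent precursor RNA, read -0.33, 0.073 and 0.0051 on mock, 1.05 and 0.98 on ABCG2, and -0.51 and -0.53 on the EZH2-Mt arrays. As with Fbl, ABCG2 was highest and both fractions were below mock. The rise over mock was 1.10 ± 0.16 (2.14-fold, adjusted p = 0.00145). That order is of the mean of 4 Ncl probe sets. The one with the smallest rise, 0.65, read -0.22 on GFP-negative, within its mock range of -0.40 to 0. On GFP-positive it read 0.016, above that range. Nucleophosmin (Npm1), a chaperone of nucleolar assembly, read -0.24, 0 and 0.065 on mock, 0.71 and 0.81 on ABCG2, and -0.54 and -0.40 on the EZH2-Mt arrays. For Npm1 too, ABCG2 was highest and both fractions were below mock, with a rise of 0.82 ± 0.15 (1.76-fold, adjusted p = 0.0033). Nol4l was 1.20 ± 0.22 above mock (adjusted p = 0.00371), and was not called after quantile normalization.

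**Figure D3:**
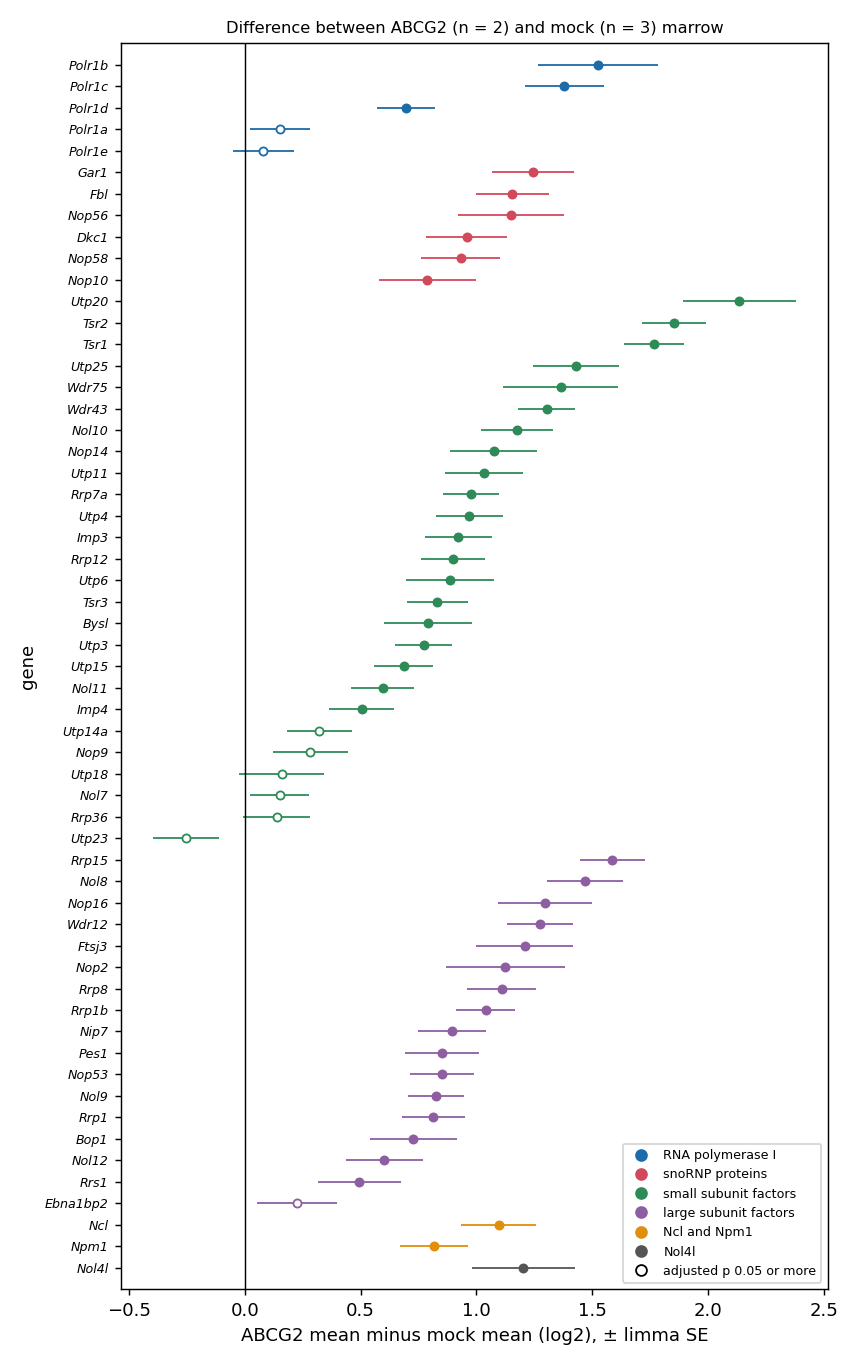
ABCG2 mean (n = 2) minus mock mean (n = 3) on the log2 scale for each of the 57 genes, coloured by role, with bars of 1 limma standard error; open points did not pass an adjusted p of 0.05. The 48 filled points run from 0.50 to 2.13 and the 9 open ones from -0.25 to 0.32.

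The 9 genes that did not pass were Polr1a, Polr1e, Ebna1bp2, Utp14a, Nop9, Utp18, Nol7, Rrp36 and Utp23, with adjusted p from 0.0837 to 0.616. Utp23, a processome protein that is needed for early cleavage, was the only one with a difference below 0. It read 0.21, 0.051 and 0.029 on mock, -0.27 and -0.048 on ABCG2, and -0.18 and -0.084 on the EZH2-Mt arrays. All mock arrays were above all others, but the difference of -0.25 ± 0.14 did not pass (adjusted p = 0.159). Utp18 was split between the ABCG2 arrays, at 0.43 and -0.10 against -0.062, 0 and 0.083 on mock, and its difference of 0.16 ± 0.18 (adjusted p = 0.480) became -0.11 without ABCG2 array 1.

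Probe sets of one gene did not always move together. Taken singly, 73 of the 96 probe sets were called higher and none lower, against 31.5% and 25.3% of all probe sets. Among the 28 genes with more than 1 probe set, 15 had every probe set called higher. Nucleolin had 4, which rose by 0.65 to 1.5, and the 4 of Polr1d rose by 0.58 to 0.84. For 4 genes the probe sets pointed in opposite directions: Nol11 (-0.085 to 1.0), Nol7 (-0.33 to 0.63), Polr1e (-0.081 to 0.24) and Utp18 (-0.095 to 0.41). The widest spread was in Nol8, where 1 probe set gave 0.34 and did not pass while the other 2 gave 2.01 and 2.06. How often the probe sets of other genes were all called higher, or pointed in opposite directions, was not counted. Which transcripts of a gene each probe set reads was not tested.

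Other genes of the pathway, from lists of known factors outside the naming rule, mostly read higher as well. Of 126 listed genes 111 were measured, of which 79 rose and 6 fell (median difference 0.85), beside 35.6% and 26.2% of all genes. After quantile normalization 36 of the 111 were called higher, beside 17.0% of all genes. Among 12 regulators of RNA polymerase I, 7 rose, led by Mybbp1a (1.42 ± 0.19), Nolc1 (1.38 ± 0.20) and Taf1d (1.35 ± 0.13), and 1 fell. The one that fell was Baz2a (-0.66 ± 0.15, adjusted p = 0.0091), a subunit of the complex that silences ribosomal DNA. Of 13 RNA helicases 9 rose, led by Dhx33 (2.0 ± 0.17), Ddx27 (1.26 ± 0.14) and Ddx31 (1.10 ± 0.22), and Ddx28, a mitochondrial helicase, fell by 0.67.

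Of 28 further small subunit factors 20 rose, with Nob1, the nuclease that makes the final cut of the small subunit RNA, at 1.84 ± 0.16, and Pdcd11 at 1.49 ± 0.23. Heatr3, at 1.73 ± 0.20, was on this list in error, since it is known for work on the large subunit. The kinase Riok3 fell by 1.13. Of 38 further large subunit factors 28 rose and 2 fell (Pwp1 by 0.83 and Tex10 by 0.53), with 1 lower when mock 1, mock 2 or ABCG2 array 2 was left out. The leading ones were Ppan at 2.17 ± 0.25 and Urb2 at 1.76 ± 0.28; Ebpl, at 2.29 ± 0.18, was on the list in error, since no role in ribosome synthesis is known for it. Of 20 factors of snoRNP assembly and the RNA exosome 15 rose, led by Znhit6 (1.51 ± 0.23), Exosc2 (1.38 ± 0.16) and Ruvbl1 (1.36 ± 0.15), and Pih1d1 fell by 0.39, a call that was lost whenever 1 array was left out. After quantile normalization 5 polymerase I regulators, 3 helicases, 8 small subunit factors, 15 large subunit factors and 5 of snoRNP assembly and the exosome were called higher. The share of all genes called higher in that setting was 17.0%. Of the pathway genes named above, Nolc1, Ddx31, Heatr3, Znhit6, Tex10 and Pih1d1 lost their calls there.

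Myc, a transcription factor known to drive ribosome synthesis, read -1.34, -0.23 and 0.23 on mock, 0.99 and 2.96 on ABCG2, and -0.20 and 0 on the EZH2-Mt arrays. The groups did not overlap, but both spread widely: the ABCG2 arrays lay far apart and mock 1 was low. The difference was 2.42 ± 0.65 (adjusted p = 0.0173), which no longer passed without ABCG2 array 2 (1.44, adjusted p = 0.0748) or after quantile normalization (1.88, adjusted p = 0.0956). Of 10 measured genes of the Myc network, 3 rose (Myc, Mga and Mlxip) and 4 fell. The latter were Mxd1 (-4.29 ± 0.65, adjusted p = 0.00167) and Mxi1 (-2.24 ± 0.20), which compete with Myc, Max (-2.46 ± 0.18), the partner of Myc and of both, and Mlx (-1.60 ± 0.17). Among 4 genes of the ribosome stress response through p53, 1 passed: Mdm2 fell by 1.33 (adjusted p = 0.00108). The p53 target Cdkn1a was split, at 2.13 and -1.27 on the ABCG2 arrays against -0.15, 0.31 and 0.14 on mock. Without ABCG2 array 2, 1 of these 4 genes was called higher, and without array 1, 2 were called lower.

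Markers of cell types moved with the ABCG2 label as well. All 12 measured of 15 neutrophil markers fell (median difference -5.69), and their summed centred signal was -2.67 to 0.59 on mock, -48.3 and -67.5 on ABCG2, and 3.40 and 11.9 on the GFP-negative and GFP-positive arrays. All 6 measured of 8 monocyte markers fell too (median -4.10; sums of 6.57 to 7.46 on mock, -20.8 and -19.9 on ABCG2, and -1.74 and -0.72 on the fractions). Of 6 measured of 13 B-lineage markers 4 rose (median 4.04; sums of -8.66 to -3.69, 12.7 to 15.7, and 0.90 and 3.77), and of 4 measured of 10 stem and progenitor markers 3 rose (median 2.71; sums of -2.17 to -0.42, 7.16 to 7.82, and -0.97 and -0.084). T and NK markers (4 of 10 measured) gave 2 higher and 1 lower, with sums of -7.72 to -1.07 on mock, 1.19 to 2.14 on ABCG2, and 5.08 and 0.37 on the fractions. Erythroid markers (5 of 12) gave 1 higher and 2 lower, with sums of -3.26 to 2.15, -5.60 to -4.54, and 1.88 and 6.51. Of 17 proliferation genes 4 rose and 4 fell (median -0.30; sums of -2.30 to 1.09, -8.17 to -0.23, and 1.23 and 6.66): Mki67, Ccna2, Cdk1 and Aurka were lower, and Mcm2, Mcm4, Mcm6 and Mcm7 higher. None of 5 stroma markers was measured, and centred values cannot show a marker to be at 0. The part of cell makeup in the rise of the ribosome genes was not tested.

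The same ABCG2 arrays were also above both EZH2-Mt arrays for 52 of the 57 genes, against 40.4% of all genes, and below both for none, against 35.6%. The median of ABCG2 mean minus EZH2-Mt mean was 1.09, against 0.073 over all genes. The exceptions were Polr1a, Rrp7a, Nop9, Rrp36 and Utp23. With 1 array per fraction there is no test here, and these ABCG2 arrays also enter the comparison with mock.

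**Figure D4:**
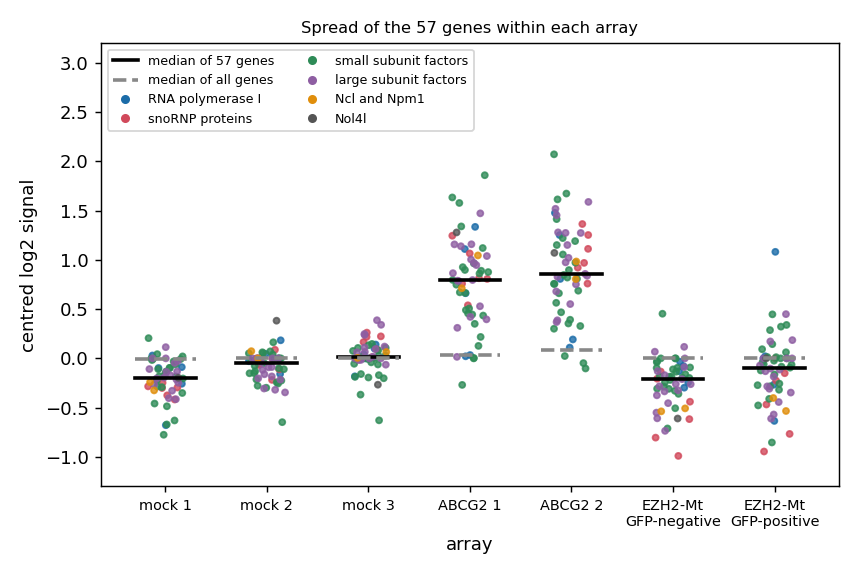
Centred log2 signal (vertical axis) of the 57 genes on each array (horizontal axis); points are genes coloured by role, solid bars the median of the 57 genes and dashed bars the median of all 8378 genes. The solid bar is at 0.80 and 0.86 on the ABCG2 arrays and between -0.21 and 0.011 on the other 5.

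In the EZH2-Mt fractions the ribosome biogenesis genes lay more often below than above the 3 mock arrays. There were no replicates and hence no test. The GFP-negative array was below all 3 mock arrays for 31 of the 57 genes, against 30.7% of all genes, and above all 3 for 5, against 38.9%. The GFP-positive array was below all mock arrays for 24, against 33.6%, and above them for 14, against 42.5%. The median distance from the mock mean was -0.15 for GFP-negative and -0.047 for GFP-positive, against 0.043 and 0.061 over all genes. Leaving out mock array 2 or 3 raised the count for GFP-negative above mock from 5 to 8 or 10. Leaving out mock 3 raised that for GFP-positive from 14 to 22. A range over fewer mock arrays is narrower, so more genes of any kind fall above it. The matching shares of all genes are not given here. Distances of 1 log2 unit or more from the mock mean were rare among all genes. On the GFP-negative array none of the 57 genes lay that far, against 2.46% higher and 2.12% lower of all genes. Polr1a was the only one to reach that distance on the GFP-positive array, where 4.33% of all genes were higher and 3.03% lower by as much.

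Both fractions were below all mock arrays for 17 genes, against 20.6% of all genes, and both above for 2, Utp25 and Rrp7a, against 27.4%. The latter count was 4 without mock 2 (31.6% of all genes) and 7 without mock 3 (31.9%). Counted on the mean of each gene's probe sets, the 17 included the C/D proteins Fbl and Nop58, the pseudouridine synthase Dkc1, nucleolin and nucleophosmin. Nop58 was 0.95 below the mock mean on GFP-negative and 0.73 below on GFP-positive, and Fbl 0.74 and 0.88 below. Of the 26 small subunit factors 12 were below mock on GFP-negative, against 30.7% of all genes. On GFP-positive 8 were below and 10 above, near the shares of all genes (33.6% and 42.5%).

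Between the fractions, GFP-positive was above GFP-negative for 38 of the 57 genes, against 51% of all genes, with a median difference of 0.11 against 0.0097. Polr1a, at -0.13 on GFP-negative and 1.08 on GFP-positive, was the only one apart by 2-fold or more (1.21), against 1.77% of all genes higher and 1.34% lower by that much; it rests on 1 probe set. After quantile normalization 6 genes were that far apart, against 3.53% of all genes: Utp20, Polr1a, Rrp1, Nop10, Wdr12 and Nol4l. The next were Wdr12 (0.82), Tsr3 (0.76), Utp20 (0.73), Bysl (0.65) and Rrp1 (0.62), all higher on GFP-positive. Tsr3, which modifies the small subunit RNA, read -0.31 and 0.45 on the fractions against -0.24 to -0.031 on mock, so the fractions lay on either side of mock. Bysl, a pre-small-subunit factor, read -0.51 and 0.14 against -0.49 to 0.076 on mock, and Rrp1, a large subunit factor, -0.74 and -0.11 against -0.13 to 0.10. The ABCG2 arrays were above both fractions for each of these 5 genes.

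**Figure D5:**
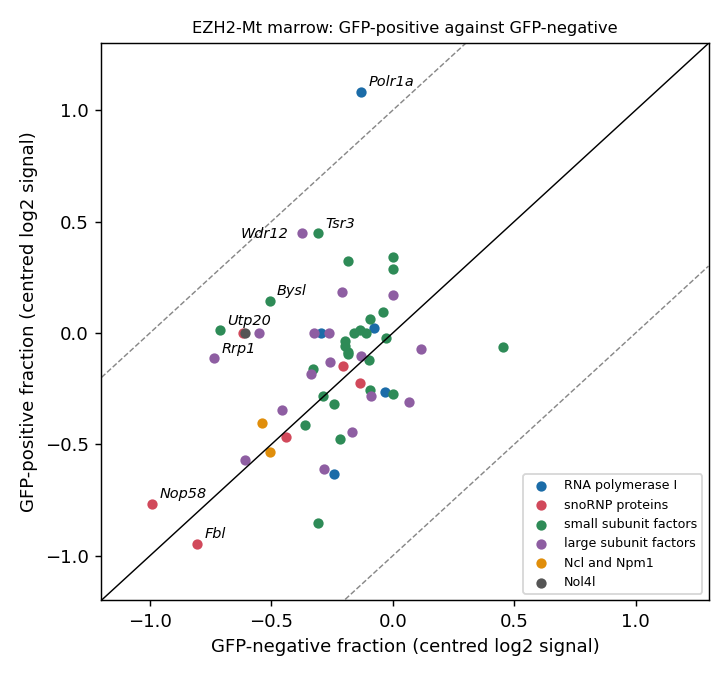
Centred log2 signal of the 57 genes on the GFP-positive array (vertical axis) against the GFP-negative array (horizontal axis), coloured by role; the solid line marks equal values and the dashed lines a 2-fold difference. Polr1a alone lies outside the dashed lines in these values (6 genes do after quantile normalization), and Fbl and Nop58 lie at the lower left, low on both arrays.

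Within the mock group the 57 genes varied about as much as all genes. The range over the 3 mock arrays had a median of 0.31 over the 57 genes, against 0.29 over all genes, and reached 0.82 for Polr1b, so that none reached 1, against 2.61% of all genes. Mock 1 was the lowest mock array for 36 of the 57 genes, against 38.4% of all genes, and mock 3 the highest for 38, against 32.8%. ABCG2 array 2 was above array 1 for 41 genes, against 58.8%, with a median gap of 0.11. No gene of the 57 differed by 1 or more between the ABCG2 arrays, against 4.34% of all genes.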

How the data were processed

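Bone marrow RNA was profiled on 7 Affymetrix arrays. The authors' deposited table holds log values, taken here as log2, centred on each probe set's median over the 7 arrays, of probe sets with a raw signal of 3 to 120534.25 that were Present or Marginal in 100% of samples, per the file headers and values. The submitters' processing notes name MAS5, with no version; scaling is not given in the sources used here. The log base is not stated either: the largest range of a probe set, 8.70, exceeds what log10 allows (4.60) but not natural log (10.6), and base 2 was assumed; under natural log, differences and folds would be larger than printed.

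Control probe sets (54) were set apart. Of 16255 others, 14229 had 1 gene symbol in the platform annotation, 483 had several and 1543 had none; probe sets of a gene were averaged, giving 8378 genes. All 57 gene identifiers matched RefSeq. Mock (n = 3) and ABCG2 (n = 2) were compared with limma 3.58.1 in R 4.3.3 (lmFit, eBayes), adjusted over all 8378 genes by Benjamini-Hochberg at 0.05; the script was tested on simulated data. EZH2-Mt fractions had 1 array each and were not tested.

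The members and lists were chosen with earlier results of these data known. Genes named in full were, per role group, up to 5 called members with the largest difference, the 6 with the largest difference between fractions, members whose probe sets disagree in sign, a fixed set of core factors, the leading 3 per pathway list, and Myc; others, such as Rrp7a and Utp23, were singled out after their values were seen. Alternatives were other scalings, array weights, probe-set rules, a replicate block and leaving out each array.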

Additional observations from a re-analysis of the deposited data

How the results depend on the processing

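Quantile normalization of the centred values changed the calls most: it forces equal spread on arrays that differ in spread. It left 13 of 57 genes (median 0.58) and 36 of the 111 other pathway genes higher, beside 17.0% of all genes. The 13 were 1 of RNA polymerase I, 8 small and 4 large subunit factors, with 0 of the snoRNP proteins, of Ncl and Npm1, and of Nol4l. Of the 32 members that the naming rule picked, 19 lost their call under quantile normalization. Polr1e turned to -0.033 and Utp18 to -0.014. Polr1e was -0.081 without the _x_at and _s_at probe sets, and Utp18 ran from -0.11 without ABCG2 array 1 to 0.43 without ABCG2 array 2; neither was called in any setting. Leaving out 1 mock array at a time gave 44 to 48 genes higher (medians 0.86 to 0.99), beside 29.4% to 31.7% of all genes, with 0 lower each time. Leaving out ABCG2 array 1 or 2 gave a median of 0.97 or 0.87. The other settings left the counts for the 57 genes within 1.5 times, and no member was called lower in any. Those fitted on 1 value per gene gave 45 to 48, beside 30.7% to 35.5% of all genes. The count was 49 when a gene counted as higher if any of its probe sets passed singly.

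Between the fractions, genes at least 2-fold higher on GFP-positive went from 1 to 6 with quantile normalization (3.53% of all genes) and to 8 when 1.5-fold was counted (7.88% of all genes). When 2-fold from the mock mean was required in place of the mock range, 0 were above and 0 below on GFP-negative, and 1 above and 0 below on GFP-positive. Leaving out 1 mock array gave 5 to 10 above on GFP-negative and 14 to 22 on GFP-positive. The mock range narrows with fewer arrays, so the share of all genes outside it rises as well. Genes with both fractions outside the mock range were counted as an alternative chosen after seeing the data. They were 17 to 25 below, against 20.6% to 25.2% of all genes, and 2 to 7 above, against 27.4% to 32.8%.

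Mock and ABCG2 share replicate numbers 1 and 2. Deviations of same-numbered arrays correlated at 0.067 and -0.060 over all genes, which gave no sign of pairing. With 2 ABCG2 arrays their deviations mirror each other, so these are not independent checks. They cannot show whether same-numbered arrays shared an experiment. A fit with the replicate number as a block gave 48 genes higher and a median of 0.99; since mock 3 is alone in its block, these differences equal those without mock 3. Signal over background cannot be read from centred values, so dim genes could not be told from bright ones.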
